A study of Mus musculus with 3 samples.

Results

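The genes described here encode 9 proteins of the contacts between endothelial cells: Cdh5, Cldn5, Ocln, Tjp1, Esam, F11r, Jam2, Jam3 and Cgnl1. They were chosen by symbol, and all 9 were found among the 18287 genes listed in the deposited tables. RNA was measured in mouse aortic endothelial cells, bought as a culture together with their medium, in 3 groups with 1 library each. The control group is labelled only as control, and a vehicle is not stated. The glucose oxidase group was exposed for 30 min to 5 mU/mL of this enzyme, which oxidizes glucose and releases hydrogen peroxide. The group given both agents received the same glucose oxidase exposure and ethyl-2-hydroxybenzylamine (Et2HOBA), a scavenger of isolevuglandins, the reactive products of lipid oxidation, at 0.2 mM for 24 h. The labels give neither the order of the agents nor the passage of the cells, and no library with Et2HOBA alone was analysed here.

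Endothelial cells hold together through adherens junctions and tight junctions, which lie intermingled along the cell border and set how much fluid, protein and how many leukocytes cross the vessel wall. VE-cadherin, the product of Cdh5, binds its like on the neighbouring cell and is tied to actin through catenins, whereas claudins form the strands that seal the space between cells. Junctional adhesion molecules are immunoglobulin-like proteins placed at the same contacts, and scaffold proteins such as ZO-1 join the membrane proteins to the cytoskeleton.

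Each group had 1 library, so no difference below has a replicate check and none was tested between conditions. Intervals are exact binomial (Clopper-Pearson) intervals at 95% on the reads of 2 libraries, or of 2 genes within a library, and cover counting error only. Total reads over the listed genes were 35969965 (control), 35005089 (glucose oxidase) and 40212212 (both agents). Levels within a library are given as TPM, that is, reads per exon length scaled to the same total in each library. Comparisons between libraries use normalized counts, that is, reads divided by a size factor of each library, and log2 ratios of normalized count plus 10. A gene is described as past the limit when its log2 ratio was 1 or more in either direction.

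The cells carried RNA of all 10 endothelial markers examined. Egfl7, with 18404, 14716 and 15640 reads, has no matched exon length and was left out of their TPM sum. The sum, which includes Cdh5, was 5448 TPM in control, 4345 TPM after glucose oxidase and 4549 TPM with both agents. Nos3 alone stood at 708.7, 1147 and 1560 TPM. Kdr, Tie1, Tek, Vwf and Erg had their lowest TPM and normalized count with both agents, whereas Emcn, Cdh5 and Nos3 had their highest. Pecam1 was lowest with both agents in TPM, at 409.6 beside 435.4 after glucose oxidase. In normalized counts it was lowest after glucose oxidase, at 27885 beside 28463 with both agents. Of the 10 markers 3 were past the limit after glucose oxidase, all lower, beside 12.7% of all listed genes. With both agents 5 were, 4 lower and 1 higher (Nos3), beside 14.7%. Among markers of other cells, the leukocyte genes Ptprc, Adgre1, Itgam and Cd3e, the fibroblast genes Col1a2, Dcn, Lum and Thy1, the epithelial genes Cdh1 and Epcam and the lymphatic genes Prox1 and Pdpn were not among the listed genes. Cd68, a lysosomal protein typical of macrophages, had 8215, 17067 and 27799 reads in the libraries of control, glucose oxidase and both agents. Pdgfra, a receptor typical of fibroblasts, had 107, 1325 and 2821 reads. Summed over each list, the 2 listed leukocyte genes stood at 646.4, 1374 and 1914 TPM, the 2 listed fibroblast genes at 1.45, 13.8 and 24.6 TPM, and the 5 listed smooth muscle genes at 111.0, 82.8 and 80.3 TPM. The leukocyte sum was nearly all Cd68, and Lyz2, the other gene of that list, had 186, 76 and 86 reads. Likewise the fibroblast sum was nearly all Pdgfra, and Col1a1 had 28, 30 and 23 reads. Smtn, at 109.9, 80.9 and 78.7 TPM, made up nearly all of the smooth muscle sum, whereas Myh11 had 19, 35 and 73 reads and Acta2 had 8, 18 and 13. The 2 listed lymphatic endothelial genes summed to 475.4, 848.1 and 1064 TPM. Of these Lyve1, a hyaluronan receptor, had 11828, 22417 and 33226 reads and was past the limit in both comparisons with control, with log2 ratios of 1.02 and 1.48, and Flt4 had 7071, 6084 and 7796 reads. The part of other cells in the values below was not tested. In such bulk RNA, fewer cells of a type and less RNA per cell cannot be told apart.

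Upstream sequences of 5 of the 9 genes were matched by symbol in RefSeq promoter windows of build GRCm38.p6. The pair below is shown because, with both agents, Cldn5 lay lowest against control among the 9 genes and Cgnl1 highest. Each line gives the 250 bases before the annotated start, read on the gene's strand. Capitals mark 2 short motifs, the CACCC box bound by Kruppel-like factors (CACCC, or GGGTG on the other strand) and a motif of the ETS factor family (CAGGAA, or TTCCTG on the other strand). The Cldn5 window lies at chr16:18776597-18776846 on the plus strand and the Cgnl1 window at chr9:71771603-71771852 on the minus strand.
Cldn5: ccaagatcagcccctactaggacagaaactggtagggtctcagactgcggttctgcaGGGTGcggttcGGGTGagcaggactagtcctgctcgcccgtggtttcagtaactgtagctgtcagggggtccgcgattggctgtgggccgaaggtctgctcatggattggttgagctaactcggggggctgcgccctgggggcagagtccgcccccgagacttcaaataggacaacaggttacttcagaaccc
Cgnl1: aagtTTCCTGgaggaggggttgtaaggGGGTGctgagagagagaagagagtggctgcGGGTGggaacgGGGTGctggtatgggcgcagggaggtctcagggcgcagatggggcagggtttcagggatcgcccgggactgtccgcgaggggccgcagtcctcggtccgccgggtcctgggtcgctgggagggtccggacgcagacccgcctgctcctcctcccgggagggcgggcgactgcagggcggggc

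The Cldn5 window held 2 CACCC boxes, beginning 193 and 182 bases before the start, and no CAGGAA. In the Cgnl1 window there were 3 CACCC boxes, beginning 223, 193 and 182 bases before the start, and 1 ETS motif at 246 bases. A CACCC box was found in 52.0% of the 32851 RefSeq windows of this length and the ETS motif in 25.7%, with both strands searched. The windows held 59.6% G and C with 12 CpG for Cldn5 and 70.8% with 20 CpG for Cgnl1, against medians of 52.4% and 6 CpG over all windows. Such matches describe the letters only.

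Within the control library the junction genes spanned a wide range of levels. Cldn5 stood highest at 3458 TPM, rank 16 among 12950 protein-coding genes with an annotated length. Cdh5 followed at 1275 TPM (rank 77) and Esam at 604 TPM (rank 219). Jam2 and F11r had nearly the same level, 360 and 357 TPM, and the interval of their ratio, 0.985 to 1.03, included 1. Cgnl1 at 215 TPM and Tjp1 at 206 TPM came next, with a ratio of 1.04 (95% interval 1.02 to 1.07). Jam3 at 27.3 TPM and Ocln at 5.73 TPM were far lower, and Ocln ranked 9424 of the same genes. Occludin RNA was thus the scarcest of the group, and 250 reads stood behind its control value.

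**Figure D1:**
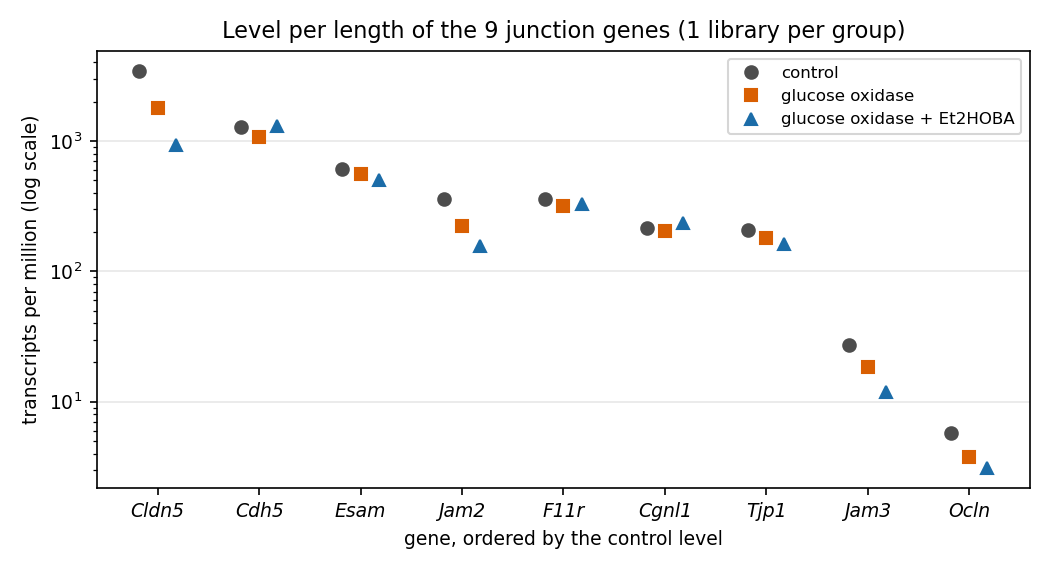
Level of each of the 9 junction genes in TPM on a log axis, with 1 point per library and genes ordered by the control level. Cldn5 stood at 3458, 1789 and 937.1 TPM in control, glucose oxidase and both agents, whereas Ocln stayed between 3.11 and 5.73 TPM.

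Against this baseline, all 9 genes had a lower level in the glucose oxidase library than in control, with log2 ratios from -0.91 (Cldn5) to -0.03 (Cgnl1) and a median of -0.20, where the median of all listed genes was -0.01. For Cgnl1 the counting interval included equal levels. None was past the limit, where 12.7% of all listed genes were, and 8.6% of all listed genes were past it on the lower side. Among protein-coding genes, to which all 9 belong, these shares were 9.3% and 4.76%. With both agents 3 of 9 were past the limit, all lower, where 14.7% of all listed genes were past it and 8.04% were past it on the lower side. The coding shares there were 16.6% and 9.3%. The median of the 9 against control was then -0.19, beside 0.00 over all genes, and the values ran from -1.73 to 0.28. Between the treated libraries no gene of the 9 was past the limit, which 8.55% of all listed genes passed, 2.15% on the lower side. Of the coding genes 3.32% passed it there, 2.35% on the lower side. All 3 comparisons share libraries, so their values are not independent of one another.

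**Figure D2:**
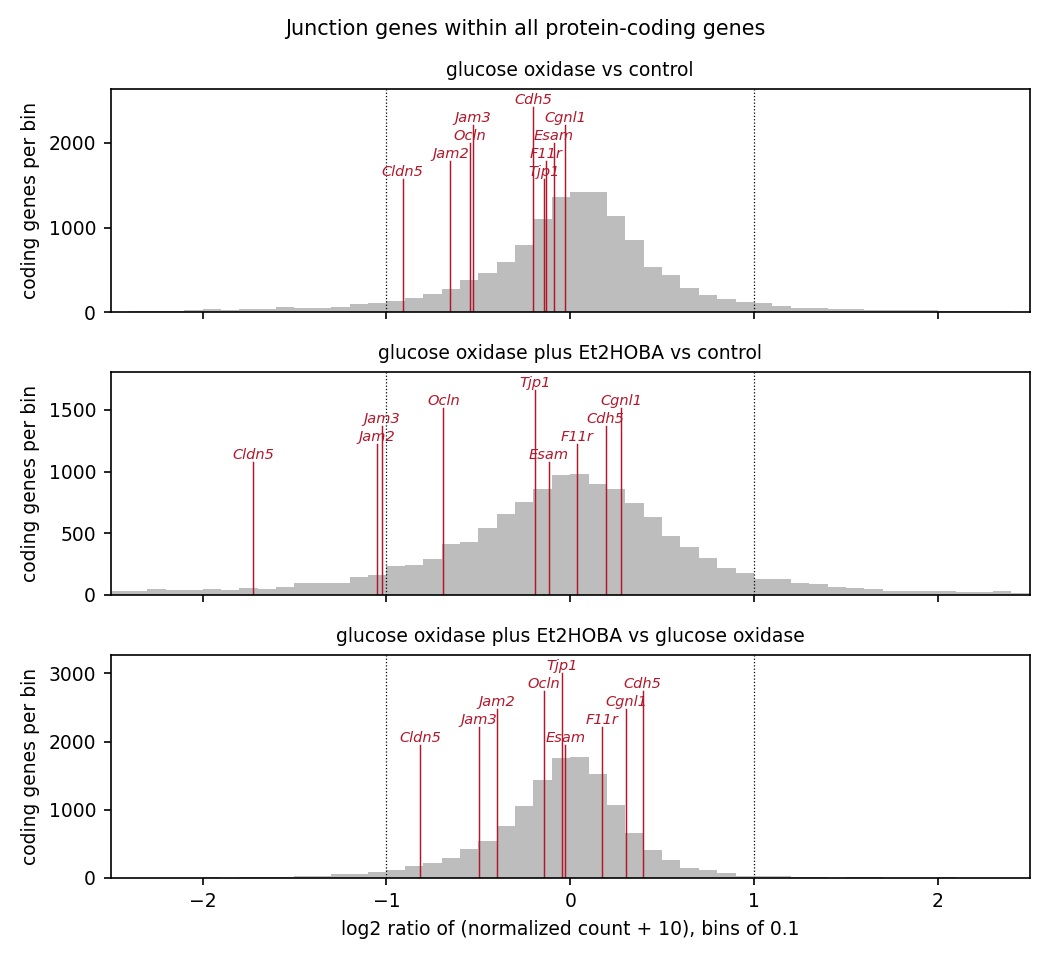
Log2 ratios of the 9 junction genes (red lines) over the distribution of all 13285 protein-coding genes (grey, genes per bin of 0.1), 1 panel per comparison, with dotted lines at the limit. Of the 9 genes Cldn5 lies farthest to the left in every panel, at -0.91, -1.73 and -0.82, and values beyond 2.5 are not drawn.

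Claudin-5, encoded by Cldn5, is the main claudin of endothelial tight junction strands. The gene (ENSMUSG00000041378.2, chromosome 16, 18776847 to 18778262) is annotated without an intron. Its reads numbered 50579 in control, 25153 after glucose oxidase and 15378 with both agents. The control library was thus highest and the library given both agents lowest. After glucose oxidase the normalized count was 0.532 of control (95% interval 0.524 to 0.540), and with both agents it was 0.302 of control (0.297 to 0.308). With Et2HOBA added it was 0.568 of the level after glucose oxidase alone (0.557 to 0.580). Among coding genes with a length, 5.57% had a lower log2 ratio than Cldn5 after glucose oxidase and 3.84% with both agents.

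VE-cadherin RNA took another course. Cdh5 (ENSMUSG00000031871.9, chromosome 8, 104101625 to 104144511) was covered by 55360 control reads, 45034 reads after glucose oxidase and 63665 with both agents. Its level was lowest after glucose oxidase, at 0.870 of control (0.859 to 0.881), and highest with both agents, at 1.14 of control (1.13 to 1.16). Between the treated libraries the ratio was 1.31 (1.30 to 1.33), higher than in 91.1% of coding genes with a length. For each of these comparisons the counting interval excluded equal levels, but the differences were at most 0.39 on the log2 scale. The excess over control with both agents depended on the scaling, since its log2 ratio of 0.19 became 0.04 with scaling by total reads.

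Because both genes were counted in the same libraries, the ratio of Cldn5 to Cdh5 reads does not depend on the scaling. It was 0.914 in control (0.903 to 0.925), 0.559 after glucose oxidase (0.550 to 0.567) and 0.242 with both agents (0.237 to 0.246). Per length, Cldn5 RNA was 2.71 times as abundant as Cdh5 RNA in control and 0.717 times as abundant with both agents, so the order of the leading pair was reversed there. Cldn5 made up 53.1% of the summed TPM of the 9 genes in control, 41.0% after glucose oxidase and 25.8% with both agents, while Cdh5 made up 19.6%, 24.7% and 35.9%. The sum itself was 6508, 4370 and 3639 TPM. In reads, which are not corrected for library depth, it was 191316, 138454 and 153193. Scaled by total reads, the sum was lower with both agents than after glucose oxidase, as in TPM. In normalized counts it was higher with both agents, so the order of the treated libraries depends on the scaling.

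**Figure D3:**
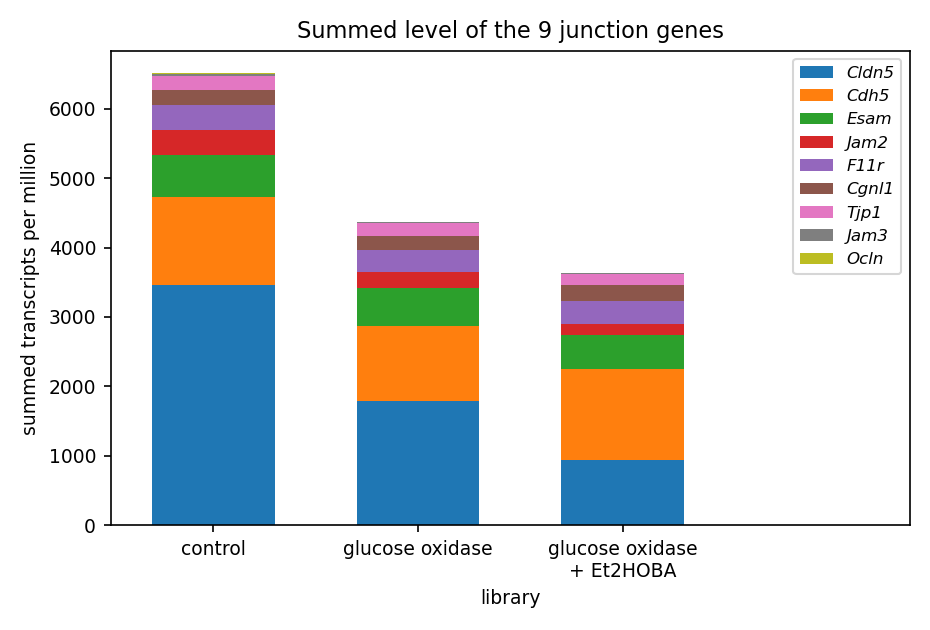
Summed TPM of the 9 junction genes in each library, stacked by gene in the order of the control level. The sum is 6508 in control, 4370 after glucose oxidase and 3639 with both agents, and the Cldn5 segment at the base is 3458 in the first bar and 937.1 in the last.

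Occludin, a membrane protein of tight junctions with several membrane spans, was scarce throughout. Ocln (ENSMUSG00000021638.12, chromosome 13, 100496507 to 100552718) was counted 250 times in control, 157 times after glucose oxidase and 152 times with both agents. Both treated libraries were lower than control, at 0.671 (0.546 to 0.823) and 0.604 (0.491 to 0.742) of its level. A difference between the treated libraries was not detectable at this depth, since the interval of their ratio ran from 0.715 to 1.13.

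The junctional adhesion molecules, of the immunoglobulin superfamily, bind each other across the contact and also serve as counter-receptors for leukocyte integrins. JAM-A is encoded by F11r, JAM-B by Jam2 and JAM-C by Jam3, and their relative ESAM by Esam. Jam2 (ENSMUSG00000053062.16, chromosome 16, 84774123 to 84825928) was counted 22505 times in control, 13393 times after glucose oxidase and 10922 times with both agents. Its level was 0.636 of control (0.623 to 0.650) after glucose oxidase and 0.482 (0.471 to 0.493) with both agents. Between the treated libraries the ratio was 0.758 (0.739 to 0.777). Jam2 was highest in control and lowest with both agents, the same order as for Cldn5.

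Jam3 (ENSMUSG00000031990.15, chromosome 9, 27097384 to 27155421) showed nearly the same proportions at a lower level, with 903, 583 and 441 reads. The values relative to control were 0.690 (0.621 to 0.767) and 0.485 (0.432 to 0.544). With Et2HOBA added, Jam3 stood at 0.703 of its level after glucose oxidase alone (0.620 to 0.797). Its log2 ratio with both agents, -1.03, was only just past the limit. In the authors' deposited table the difference was -0.94, on their own scale, which is not the one used here. The antisense gene Gm48796 overlaps 36.2% of the exon bases of Jam3 and had 81, 57 and 36 reads. The strand setting of the counting is not given in the sources used here, so reads in this overlap may belong to either gene.

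The remaining relatives stayed close to control. F11r (ENSMUSG00000038235.4, chromosome 1, 171437535 to 171464603) gave 9830 control reads, 8388 glucose oxidase reads and 10159 reads with both agents. After glucose oxidase it was at 0.912 of control (0.886 to 0.939). With both agents the ratio was 1.03 (0.999 to 1.06), an interval that included equal levels, and its log2 ratio of 0.04 became -0.11 with scaling by total reads. Esam (ENSMUSG00000001946.14, chromosome 9, 37528078 to 37538319) had 17876, 15726 and 16604 reads and stood at 0.940 (0.920 to 0.961) and 0.923 (0.904 to 0.943) of control. Between the treated libraries its ratio of 0.981 (0.960 to 1.003) included equal levels, and the log2 ratio of -0.03 became 0.00 with size factors from protein-coding genes.

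The makeup of the family differed between libraries. For each F11r read there were 2.29 Jam2 reads in control (2.24 to 2.34), 1.60 after glucose oxidase (1.55 to 1.64) and 1.08 with both agents (1.05 to 1.10). The ratio of Jam3 to F11r reads was 0.0919, 0.0695 and 0.0434 in the same order, and these intervals did not overlap either. The ratio of Jam2 to Jam3 reads, in contrast, was 24.9 (23.3 to 26.7), 23.0 (21.1 to 25.0) and 24.8 (22.5 to 27.3), with overlapping intervals. Jam2 made up 26.7% of the summed TPM of F11r, Jam2, Jam3 and Esam in control and 15.6% with both agents, whereas F11r made up 26.5% and 33.0%.

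**Figure D4:**
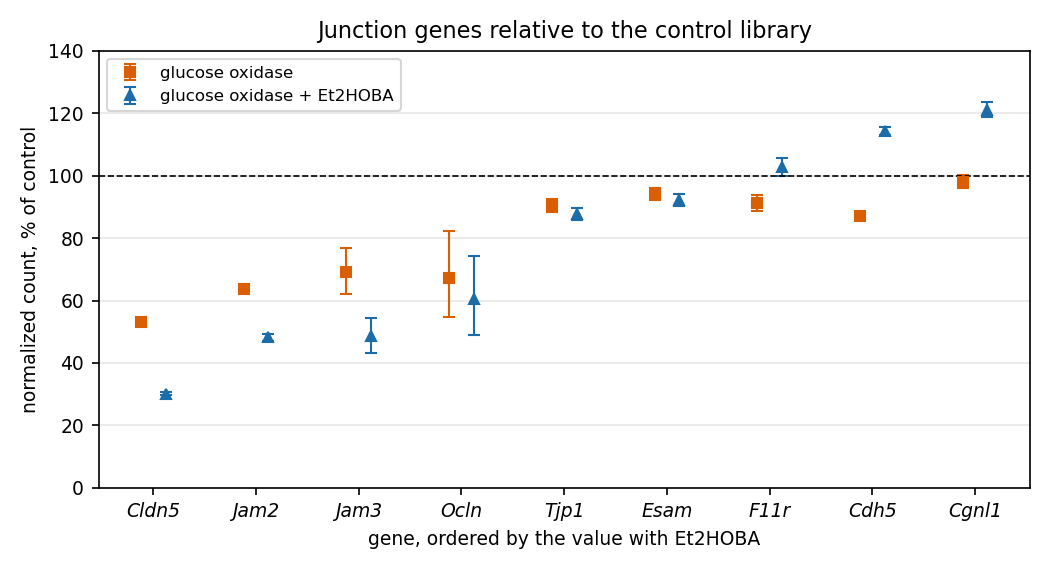
Normalized count of each gene in the treated libraries as a percentage of control, with 95% counting intervals (no replicates) and a dashed line at 100%. Cldn5, Jam2, Jam3 and Ocln lie at or below 69.0% in both treated libraries. Cdh5, Cgnl1 and F11r are above 100% with both agents but below it with glucose oxidase alone. The intervals of Cgnl1 with glucose oxidase and of F11r with both agents include 100%.

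The cytoplasmic scaffold genes Tjp1 and Cgnl1 summed to 34013, 30020 and 35872 reads in control, glucose oxidase and both agents, and to 421, 386 and 395 TPM. The reads are not corrected for library depth. Scaled by total reads, the sum with both agents was below control, as in TPM. In normalized counts it was above control, so its direction depends on the scaling. Tjp1 encodes ZO-1, which links claudins, occludin and JAMs to actin. Tjp1 (ENSMUSG00000030516.14, chromosome 7, 65296165 to 65527781) gave 16604 reads (control), 14053 reads (glucose oxidase) and 14651 reads (both agents), or 0.905 (0.885 to 0.925) and 0.877 (0.857 to 0.897) of control once normalized. Cgnl1 encodes paracingulin, a scaffold that binds regulators of small GTPases at both junction types. Cgnl1 (ENSMUSG00000032232.14, chromosome 9, 71626509 to 71771602) had 17409, 15967 and 21221 reads. After glucose oxidase its level was 0.981 of control, an interval of 0.960 to 1.002 that included equal levels, and with both agents it was 1.21 (1.19 to 1.24). The log2 ratio of the latter, 0.28, became 0.12 with scaling by total reads.

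Cgnl1 was thus the highest of the 9 genes relative to control with both agents. Between the treated libraries it stood at 1.24 (1.21 to 1.26), second to Cdh5 among the 9. Reads of Cgnl1 for each Tjp1 read numbered 1.05 in control (1.03 to 1.07), 1.14 after glucose oxidase (1.11 to 1.16) and 1.45 with both agents (1.42 to 1.48).

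A gene-by-gene view of the added scavenger divides the group. With Et2HOBA added to glucose oxidase, Cldn5, Jam2 and Jam3 lay farther from control than with glucose oxidase alone, at 30.2%, 48.2% and 48.5% of control instead of 53.2%, 63.6% and 69.0%. Cdh5 and Cgnl1 stood at 114.3% and 121.1% of control instead of 87.0% and 98.1%. F11r stood at 102.7% instead of 91.2%, and Tjp1, Esam and Ocln differed by 0.14 or less on the log2 scale between the treated libraries.

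To place the group beside its partners, other junction genes were counted by list. For each list the shares of all listed genes past the limit serve as background. They were 12.7% after glucose oxidase (8.6% lower), 14.7% with both agents (8.04% lower) and 8.55% between the treated libraries (2.15% lower). Of 15 adherens junction partners, all listed, none was past the limit in any comparison, and their medians were -0.17 after glucose oxidase, -0.02 with both agents and 0.05 between the treated libraries. Ctnnb1, beta-catenin, which binds the VE-cadherin tail, had 34792, 23267 and 26596 reads, 0.715 and 0.760 of control. Ptprb encodes VE-PTP, a phosphatase bound to VE-cadherin, and had 11151, 6591 and 6281 reads, 0.632 and 0.560 of control. Ctnna1, alpha-catenin, had 28486, 28267 and 34749 reads, so that this partner was slightly higher, at 1.06 and 1.21 of control. The other catenins of the list, Ctnnd1 at 0.717 and 0.642 of control and Jup at 0.711 and 0.666, were lower, as was Ctnnb1. For Ctnnd1 69.5% of the 50-base stretches of the longest transcript occur in another gene.

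Among 28 tight junction partners 20 were listed. Past the limit were 1 gene after glucose oxidase (lower) and 4 with both agents, 2 higher and 2 lower, and none between the treated libraries. Cldn15, another claudin, had 1257, 395 and 262 reads, 0.336 (glucose oxidase) and 0.207 (both agents) of control. In both treated libraries it lay farther below control than Cldn5. Ybx3 encodes ZONAB, a ZO-1-associated transcription factor, and was higher, with 11465, 17433 and 26447 reads and log2 ratios of 0.70 and 1.20. Pard6a, a subunit of the PAR polarity complex, had 264, 493 and 608 reads and log2 ratios of 0.97 and 1.16. The other gene past the limit with both agents, Cldn1, had 11, 2 and 0 reads and is too scarce for a fold.

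Signals that tighten or loosen the barrier made up a list of 32 genes, of which 31 were listed. After glucose oxidase 2 were past the limit, both lower, and with both agents 7, 3 higher and 4 lower. Tek, the angiopoietin receptor TIE2, and Kdr, the main VEGF receptor, had log2 ratios of -1.14 and -1.06 after glucose oxidase and of -2.01 and -1.36 with both agents. Plvap, a protein of caveolar and fenestral diaphragms, had 6432, 3372 and 3126 reads, and Adgrl4, an adhesion G-protein-coupled receptor, had 3221, 1861 and 1486. On the higher side with both agents, Rap1b, a small GTPase that strengthens junctions, had 15128, 25374 and 44309 reads, and Src, a kinase that phosphorylates junction proteins, had 4368, 6191 and 9092. The third higher gene was Angpt2, an angiopoietin, with 9, 17 and 38 reads.

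Of 21 transcription factors known to act on junction genes or endothelial fate, 19 were listed. None was past the limit after glucose oxidase, 8 were with both agents (7 lower, 1 higher), and 1 was between the treated libraries, lower. Sox18, a SOX factor of endothelial cells, had 9014, 4854 and 2595 reads, which placed it at 0.576 and 0.286 of control and at 0.497 of the level after glucose oxidase (log2 ratio -1.01). The ETS factors Fli1 and Ets1 had 8374, 4260 and 2621 reads and 9458, 5005 and 4207 reads. Erg, the ETS factor regarded as a main activator of Cdh5 and Cldn5 in endothelial cells, had 5936, 3887 and 2697 reads, or 0.700 and 0.451 of control. Sox17 completed the 7 lower genes, with 10269, 6037 and 4632 reads. Lmo2, a partner of DNA-binding complexes in endothelial and blood cells, had 4579, 2662 and 1842 reads, and Tcf7l1, which acts with beta-catenin, had 1689, 848 and 704. Zeb2, a repressor of E-cadherin, was the higher one, with 1619, 2867 and 4235 reads and log2 ratios of 0.92 and 1.37. The Kruppel-like factors Klf2 and Klf4 were not past the limit but were also higher with both agents. Klf2 had 10015, 10850 and 18707 reads, 1.16 and 1.86 of control, and Klf4 had 4264, 4008 and 7870, 1.01 and 1.83 of control. Of the 19 listed factors, 8 had log2 ratios above 0 with both agents and 11 below. Whether any of these factors bears on the junction genes was not tested.

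Of 14 genes of shedding and endocytosis, 13 were listed and 1 was past the limit in any comparison. Cav1, the coat protein of caveolae, had 15131, 9192 and 7331 reads and a log2 ratio of -1.05 with both agents. Adam10, a protease that cleaves VE-cadherin, had 18645, 14910 and 17724 reads, 0.855 and 0.945 of control.

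**Figure D5:**
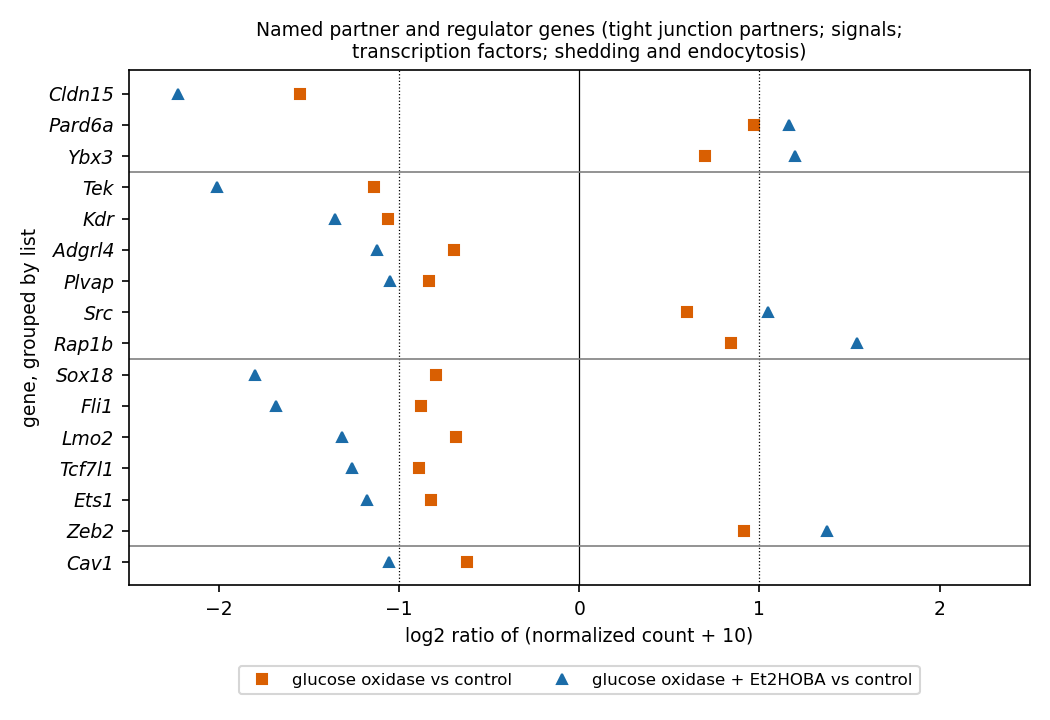
Log2 ratios against control of the 16 named partner and regulator genes, with squares for glucose oxidase, triangles for both agents and dotted lines at the limit; grey lines separate the lists. The genes were chosen by their largest log2 ratio, so the distance of the triangles from 0 is a description only; Sox18, for example, lies at -0.80 and -1.80.

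Genes resembling Cdh5 were sought by the distance between pairs of log2 ratios against control, among 6699 other coding genes with a mean normalized count of 1000 or more. The 5 nearest were Tom1, Fgd6, Arfgap3, Macf1 and Pcdh1, at distances from 0.0206 to 0.0351 log2 units. Pcdh1, a protocadherin, had 7261, 5897 and 8151 reads. With 3 libraries a pattern has only 2 values, and 32 of these genes lay within 0.1 log2 units of Cdh5.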

How the data were processed

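RNA from 3 samples of mouse aortic endothelial cells, 1 per group, was sequenced as stranded poly(A) libraries, per the labels' protocols. The submitters' processing notes name STAR, featureCounts and mm10, with no role or version; other settings are not given in the sources used here. The authors deposited raw read counts for control and both agents, log-normalized values of these 2 libraries and log differences for each comparison, per the file headers and titles. These name no base of the logarithm, and base 2 was inferred from the values. The difference tables of glucose oxidase against control and of the treated libraries have no header, and the second lists 7 genes, none of them a junction gene.

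The glucose oxidase reads were computed back from the deposited log2 differences, on a scale where each value is asinh of the root of a scaled count. With the control counts, 100% of 18275 genes matched by symbol came out within 0.01 of a whole read. Adding 1 read to each control count left 3.31%. A spreadsheet had turned 19 symbols into dates, and 12 genes with ambiguous names were placed by whole reads. The recovery was also run on simulated counts placed on the same scale, which checks the computation but not the choice of scale.

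For scaling, each library was divided by its median-of-ratios size factor (1.03, 0.965 and 1.04 for control, glucose oxidase and both agents). Log2 ratios used a pseudocount of 10, which understates low genes. Folds used none. TPM were computed from exon lengths of GENCODE release M21, whose positions equalled the deposited ones for all 17878 gene IDs of equal version; genes without a match were left out of TPM. At most 0.9% of the 50-base stretches of any junction gene's longest transcript occur in another gene. No count model was fitted, since 1 library per group gives no spread.

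Named genes were the 9 junction genes, list genes past the limit with a mean normalized count of 100 or more (at most 6 per list), and the 5 nearest to Cdh5. Ctnnb1, Ptprb, Ctnna1, Adam10, Ctnnd1, Jup, Erg, Sox17, Klf2, Klf4, the endothelial markers, the markers of other cells, Cldn1 and Angpt2 were named after their values were seen. The 9 genes, the lists, the scaling and the limit were chosen with earlier results of these data known. Cldn5 and Cgnl1 were picked for sequence display by their values. Alternatives were scaling by total reads, TMM (edgeR 4.0.16) or protein-coding size factors, pseudocounts of 1 and 50, the deposited differences, a limit of 0.5 and a filter on low counts. Python 3.11.15 and scipy 1.17.1 were used.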

Additional observations from a re-analysis of the deposited data

How the results depend on the processing

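Among 153 values of single junction genes under alternative settings, 2 changed sign and 2 crossed the limit. F11r with both agents against control turned from 0.04 to -0.11 with scaling by total reads, and Esam between the treated libraries from -0.03 to 0.00 with size factors from protein-coding genes. Jam3 with both agents fell short of the limit with a pseudocount of 50 (-0.96) and in the authors' deposited table (-0.94, on their own scale). This left 2 of 9 genes past the limit. Scaling by total reads moved the median of all genes with both agents to -0.13 and the medians of the 9 genes to -0.26 (glucose oxidase), -0.34 (both agents) and -0.14 (between treated libraries); size factors from protein-coding genes gave -0.24 for glucose oxidase. At a limit of 0.5, 4 of 9 genes were past it after glucose oxidase, where 33.8% of all genes were, and 1 between the treated libraries, where 25.5% were. TMM scaling, a pseudocount of 1 and the filter on low counts changed no sign and no side of the limit for the 9 genes. With both agents against control, scaling by total reads also moved Cdh5 from 0.19 to 0.04 and Cgnl1 from 0.28 to 0.12. Counting error was widest for Ocln, with 152 to 250 reads. No paired analysis was possible because each group has 1 library, and leaving out a library was not possible for the same reason. The deposited table of the treated libraries lists none of the 9 genes, so that alternative gave no value there.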

Other observations

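The nearest listed coding genes on either side of several junction genes were compared with them, and the genes named here were picked after their values were seen. Cdc45, a DNA replication factor, is the nearest listed coding gene on the higher side of Cldn5 on chromosome 16, with 2184 bases between the genes. Its reads numbered 899 (control), 337 (glucose oxidase) and 161 (both agents), with log2 ratios against control of -1.30 and -2.42. Ncapd3, a condensin subunit, lies 2068 bases below Jam3 on chromosome 9 and had 1180, 708 and 561 reads, with log2 ratios of -0.63 and -1.07. On their other sides, Sept5 beside Cldn5 and Igsf9b beside Jam3 had log2 ratios with both agents of -0.23 and -0.09. The corresponding values were 0.07 and -0.43 for Mrpl39 and Atp5j, the nearest listed coding genes on either side of Jam2, and -0.13 and 0.30 for Gtf2h2 and Rad17, those beside Ocln. Bean1, 25930 bases above Cdh5 on chromosome 8, had 2359, 3676 and 5268 reads and a log2 ratio of 1.15 with both agents. Got2, on the other side of Cdh5 at a gap of 8213077 bases, had a log2 ratio of 0.10 there. Any link between neighbours was not tested.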
